A study of Mus musculus with 7 samples.

Results

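The genes described here are the 10 chemokines *Cxcl1*, *Cxcl2*, *Cxcl5*, *Cxcl9*, *Cxcl10*, *Cxcl12*, *Cxcl13*, *Cxcl14*, *Cxcl16* and *Cx3cl1*, among 47729 gene identifiers of the deposited table. They are 9 of the CXC family and the single CX3C member, fractalkine, chosen by symbol with earlier results of these data known. Shares over all genes set beside them are therefore description and no test of the list. RNA came from mouse aorta, with 4 libraries from wild-type mice (WT) and 3 from mice whose labels name a knockout of *Mmp19*, a secreted matrix metalloproteinase (KO). For both groups the allele, strain, age, sex and any treatment were not given in the sources used here. Whether the libraries stem from different animals is also not stated, and the p-values then measure only the spread between these 7 libraries.

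Chemokines are small secreted proteins that steer leukocytes along concentration gradients through G-protein-coupled receptors, and the spacing of the first cysteines gives the families their names. CXC chemokines with a Glu-Leu-Arg (ELR) motif before the first cysteine bind *Cxcr2* and draw neutrophils, while the interferon-inducible ligands of *Cxcr3* draw activated T cells and natural killer cells. In a vessel wall, *Cxcl12* is made constitutively by stromal and mural cells, and *Cxcl16* and *Cx3cl1* are made as membrane-anchored proteins on a mucin-like stalk that can be shed.

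The libraries held between 68151472 and 76926790 deposited counts. *Mmp19* read 24.8, 24.8, 20.7 and 34.7 CPM (counts scaled to the normalised library total) in WT whereas the KO replicates 1, 2 and 3 read 25.5, 11.95 and 15.9 CPM. KO replicate 1 lay inside the WT range, and KO therefore means a library labelled as knockout. Markers of the labelled tissue were present: *Acta2*, *Myh11* and *Tagln*, contractile proteins of smooth muscle, led a list of 8 that summed to between 18442 and 20458 CPM in WT, with 3648, 13971 and 7379 CPM in the KO libraries in that order. The KO libraries also differed among themselves in leukocyte markers. A list of 10 macrophage genes led by *Lyz2*, *Mrc1* and *Csf1r* summed to 3762, 677 and 1225 CPM in KO, against 307 to 532 CPM in WT. For all 10 every KO library was above every WT library, where 8.17% of all genes tested showed this. Of 10 neutrophil genes led by *Csf3r*, *S100a9* and *S100a8* the sum was 280, 14.0 and 47.1 CPM in KO and 4.91 to 20.7 CPM in WT. This sum rests on a few genes: *Csf3r* alone gave 173 CPM in KO replicate 1, and of 9 tested genes 5 had a positive and 4 a negative log2 fold change (median 0.10). None of the genes of either list was at 0 in all WT libraries. The 6 heart and skeletal muscle genes led by *Myh6*, *Actc1* and *Tnnt2* summed to 692, 805 and 129 CPM in KO and to 26.2 to 98.0 CPM in WT. These marker levels differed between the libraries alongside the chemokines below, and their part in the results was not tested. In RNA of a whole tissue, more cells of a type and more RNA per cell cannot be told apart.

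All 10 chemokine genes had a higher mean in KO than in WT, by 1.53-fold for *Cxcl9* to 36.7-fold for *Cxcl2*, as a ratio of mean CPM, and a positive log2 fold change, which 46.9% of all genes had. All 10 passed the filter on low counts, but *Cxcl2*, at the filter's level in 2 WT libraries, did so through its KO values. It is the upper end of this range and is included in the counts given here and below. The KO libraries were unequal. KO replicate 3 exceeded every WT library for all 10 genes, KO replicate 1 for 9 and KO replicate 2 for 4. No chemokine passed the test over all genes with edgeR's quasi-likelihood method, in which 0.0156% of 19188 genes were called higher (adjusted p under 0.05). Adjusted p-values of the 10 ran from 0.165 for *Cxcl16* to 0.351 for *Cxcl9*. At an unadjusted p under 0.05, 9 of the 10 were higher, where 9.92% of all genes were, and 0 were lower, where 7.27% were. DESeq2, which estimates the spread in another way, called 7 of the 10 higher and 0 lower, where 6.15% and 3.53% of the genes it gave an adjusted p were. The 7 were *Cxcl1*, *Cxcl2*, *Cxcl5*, *Cxcl10*, *Cxcl13*, *Cxcl16* and *Cx3cl1*, while *Cxcl14* was given no adjusted p. By contrast, limma-voom called 0 higher, where 0.0365% were. That fit weighted libraries by quality, and KO replicate 1 had the lowest weight (0.256, against 0.753 to 2.61 for the others).

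The median log2 fold change of the 10 genes was 2.24, against -0.03 for all genes tested. A log2 fold change of 1 or more was measured for 8 of them, and of 2 or more for 6, where 8.55% and 3.31% of all genes reached these values. The groups did not overlap for 3 genes, *Cxcl14*, *Cxcl16* and *Cx3cl1*, all with KO higher, where 8.17% of all genes had KO higher without overlap and 8.56% KO lower. Without KO replicate 2, edgeR called 7 of the 10 higher and 0 lower, where 3.34% and 1.81% of all genes were called. The 7 were all but *Cxcl1*, *Cxcl9* and *Cxcl13*. KO replicate 2 was the lowest KO library for every gene but *Cxcl9*, so leaving it out raises the KO mean of those genes. Without any other single library edgeR called 0 of the 10. The plot of CPM by library shows these patterns for each gene.

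**Figure D1:**
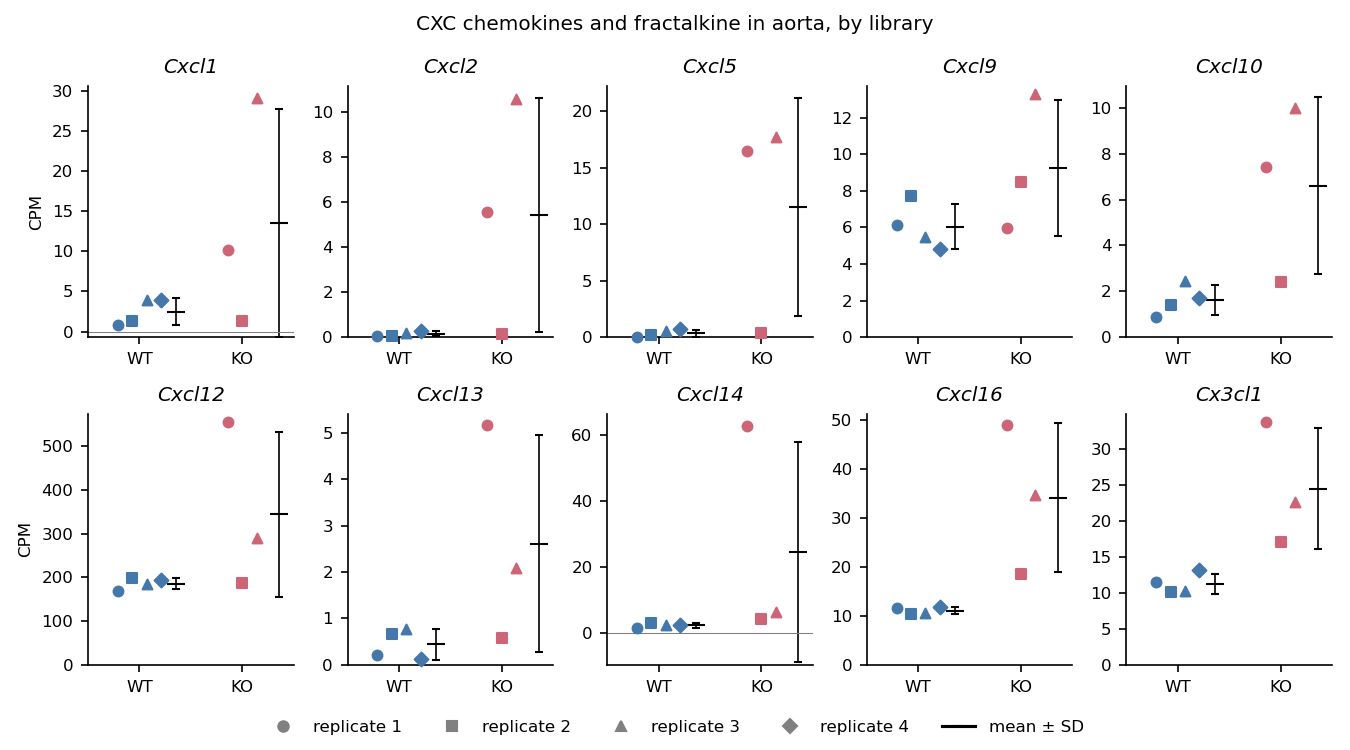
CPM of the 10 chemokine genes in 4 WT (blue) and 3 KO (red) libraries, 1 panel a gene, linear axes; marker shapes give the replicate number and bars the mean ± SD. KO replicate 2 (red square) is the lowest KO library in every panel but *Cxcl9*, and KO replicates 1 and 3 lie above the WT libraries except for *Cxcl9* in KO replicate 1.

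The ELR chemokines *Cxcl1*, *Cxcl2* and *Cxcl5* differed most between KO libraries as a ratio to KO replicate 2, with KO replicate 3 being 21.7-fold, 67.3-fold and 45.9-fold above it. *Cxcl1* (chr5:90891241-90893115, GRCm38), a neutrophil attractant released by stimulated stromal cells, read 0.784, 1.28, 3.93 and 3.87 CPM in WT and 10.2, 1.34 and 29.1 CPM in KO replicates 1, 2 and 3. KO replicates 1 and 3 were above all WT libraries, and KO replicate 2 was below 2 of them. The KO mean was 13.5 ± 14.2 CPM (SD, n = 3) beside 2.47 ± 1.67 CPM for WT (SD, n = 4). EdgeR fitted a log2 fold change of 2.45 (SE 0.96, adjusted p = 0.257). An exact 2-sided permutation of the 7 labels on log2 CPM gave p = 0.257. The log2 fold change was 1.24 without KO replicate 3.

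*Cxcl2* (chr5:90903871-90905938), a close relative of *Cxcl1* made largely by myeloid cells, was close to the limit of counting in WT. It read 0.0627, 0.0563, 0.201 and 0.272 CPM in WT, from 4 to 20 deposited counts, and 5.54, 0.157 and 10.6 CPM in KO. KO replicate 2 was again within the WT range, and KO replicates 1 and 3 were above it. On the log2 scale the difference was 5.17 (SE 1.24, edgeR adjusted p = 0.171), and DESeq2 gave an adjusted p of 9.92e-05. The permutation test gave p = 0.0857 (exact, 2-sided). Of the 31-base stretches of its transcripts 7.59% also occur in other genes' transcripts, foremost *Cxcl3*, so some reads may be split between the pair. *Cxcl2* reached the filter's level of 10 counts in 2 WT and 3 KO libraries, and it entered the test through its KO values.

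*Cxcl5* (chr5:90759360-90761624), whose product attracts neutrophils and is made by stromal and epithelial cells, was at 0 in WT replicate 1, where 3 counts would be 0.0470 CPM. The other WT libraries read 0.225, 0.502 and 0.692 CPM, and KO replicates 1, 2 and 3 read 16.5, 0.386 and 17.7 CPM. KO replicates 1 and 3 thus stood together, and KO replicate 2 stood within the WT range. Fitted by edgeR, the log2 fold change was 5.01 (SE 1.44, adjusted p = 0.186), and it was 4.59 without KO replicate 3 and 5.63 without KO replicate 2. DESeq2 gave an adjusted p of 0.0246.

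These genes belong to a cluster on chromosome 5 that runs from *Cxcl5* through *Ppbp*, *Pf4*, *Cxcl3* and *Cxcl15* to *Cxcl1* and *Cxcl2*. The other ligands of the cluster were read alongside. *Cxcl3*, also a *Cxcr2* ligand, was at 6.73, 0 and 9.04 CPM in KO and at 0.0679 CPM or less in WT, which repeats the order of the KO libraries seen for *Cxcl2*. It did not pass the filter on low counts. *Ppbp*, a platelet chemokine, read 29.0, 0.728 and 14.5 CPM in KO and 0.978 to 3.45 CPM in WT, and *Pf4*, platelet factor 4, 125, 12.98 and 24.5 CPM in KO and 8.95 to 14.2 CPM in WT. For both, KO replicate 1 was the highest library and KO replicate 2 was not above WT. *Cxcl15* was at 0.142 CPM or less in every library, and *Cxcl17*, which lies elsewhere, at 0.122 CPM or less.

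The promoters of *Cxcl1* and *Cxcl2*, neighbours in the cluster, are shown because NF-κB sites are the known control points of inflammatory CXC genes. Each is the stretch from 220 to 31 bases before the RefSeq start on GRCm38.p6, 5′ to 3′ on the gene's strand, at chr5:90891025-90891214 (+) for *Cxcl1* and chr5:90903679-90903868 (+) for *Cxcl2*. Capitals mark matches, on either strand, to the NF-κB consensus, to its form GGNNTTTCC, to the core of the interferon-stimulated response element TTCNNTTTC, to the STAT site TTCNNNGAA and to the AP-1 site TGANTCA. The first 2 of these can overlap.
Cxcl1: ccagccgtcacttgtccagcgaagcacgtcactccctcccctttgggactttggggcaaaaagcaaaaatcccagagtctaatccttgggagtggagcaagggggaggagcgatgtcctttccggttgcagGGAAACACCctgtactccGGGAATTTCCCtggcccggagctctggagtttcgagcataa
Cxcl2: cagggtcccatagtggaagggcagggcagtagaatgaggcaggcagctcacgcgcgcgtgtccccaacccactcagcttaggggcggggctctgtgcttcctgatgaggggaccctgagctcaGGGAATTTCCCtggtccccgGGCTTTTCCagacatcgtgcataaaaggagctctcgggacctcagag

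The longest run common to both stretches was GGGAATTTCCCTGG, 14 bases that hold the NF-κB match, which begins at position -71 in *Cxcl1* and -97 in *Cxcl2* (-1 being the last base before the start). The consensus was found in 4.51% of the 32851 promoter windows in the RefSeq table (300 bases each) and in 3 of the 8 chemokine windows there, those of *Cxcl1*, *Cxcl2* and *Cxcl10*. The form GGNNTTTCC was found in 5.82% of all windows and in 4 of the 8, *Cxcl9* being the added one. A match describes letters only and does not show binding.

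The *Cxcr3* ligands *Cxcl9* and *Cxcl10* differed from each other. *Cxcl9* (chr5:92321347-92328079), which is induced chiefly by interferon-γ, read 6.13, 7.72, 5.49 and 4.82 CPM in WT and 5.97, 8.48 and 13.3 CPM in KO. KO replicate 1 lay inside the WT range and KO replicates 2 and 3 above it. The means were 9.25 ± 3.73 (SD, n = 3) and 6.04 ± 1.24 CPM (SD, n = 4), and edgeR fitted a log2 fold change of 0.62 (SE 0.30, adjusted p = 0.351). DESeq2 did not call it either (adjusted p = 0.234). Without KO replicate 3 its log2 fold change was 0.26.

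*Cxcl10* (chr5:92346638-92348889), which answers to both type I and type II interferon and to NF-κB, read 0.893, 1.42, 2.44 and 1.71 CPM in WT and 7.44, 2.40 and 9.995 CPM in KO. KO replicate 2 fell just below the highest WT library, and KO replicates 1 and 3 stood well above. Its log2 fold change was 2.03 (SE 0.52, edgeR adjusted p = 0.175), DESeq2's adjusted p was 0.00514, and an exact 2-sided permutation gave p = 0.0571. Its exons overlap *Art3* on the opposite strand over 5.91% of their length, and reads there cannot be assigned without the strand setting. *Cxcl11*, the remaining *Cxcr3* ligand of the locus, was low throughout but without overlap, at 0.583, 0.414 and 0.414 CPM in KO and 0.141 to 0.352 CPM in WT (log2 fold change 0.73, edgeR adjusted p = 0.431).

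The same stretches of the *Cxcr3* ligand promoters are shown for comparison, at chr5:92328110-92328299 (-) for *Cxcl9* and chr5:92348920-92349109 (-) for *Cxcl10*, with capitals as above.
Cxcl9: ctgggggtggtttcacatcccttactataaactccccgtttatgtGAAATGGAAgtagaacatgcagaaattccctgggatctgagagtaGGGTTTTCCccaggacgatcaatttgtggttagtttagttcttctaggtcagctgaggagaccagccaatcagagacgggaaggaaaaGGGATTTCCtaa
Cxcl10: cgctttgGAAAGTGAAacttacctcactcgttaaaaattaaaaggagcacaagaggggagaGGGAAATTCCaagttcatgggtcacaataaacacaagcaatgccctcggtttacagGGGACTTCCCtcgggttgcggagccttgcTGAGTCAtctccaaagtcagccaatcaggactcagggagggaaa

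*Cxcl10* holds 2 matches to the NF-κB consensus, at positions -159 and -103, and a response-element core at -213. *Cxcl9* holds a core at -175 and 2 matches to GGNNTTTCC. The interferon core occurred in 8.56% of all windows and in 3 of the 8 chemokine windows, *Cxcl14* being the other one, the STAT site in 8.30% and in 1 of the 8 (*Cxcl14*), and the AP-1 site in 7.81% of all and in 2 of the 8. No match to the 5 motifs was found in the windows of *Cxcl12*, *Cxcl13* and *Cx3cl1*, which says only that these letters are absent there.

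A further 3 chemokines known for constitutive or homeostatic roles were led by *Cxcl12* in abundance and by *Cxcl14* in size of difference. *Cxcl12* (chr6:117168535-117181367), the stromal ligand of *Cxcr4*, was the most abundant and among the steadiest in WT, at 168, 198, 185 and 194 CPM. The KO libraries read 554, 187 and 291 CPM, so that KO replicate 2 sat in the middle of WT. The KO mean was 344 ± 189 CPM (SD, n = 3) beside 186 ± 13.1 CPM for WT (SD, n = 4), and edgeR fitted a log2 fold change of 0.89 (SE 0.33, adjusted p = 0.237). It was 0.35 without KO replicate 1 and 1.24 without KO replicate 2, and in the latter case the gene was called (edgeR adjusted p = 0.0490). *Cxcl12* made up 83.4% to 85.0% of the summed CPM of the 10 genes in WT and 73.9%, 77.8% and 66.6% in KO.

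*Cxcl13* (chr5:95956951-95961068), the *Cxcr5* ligand that guides B cells into follicles, was sparse. It read 0.204, 0.662, 0.774 and 0.122 CPM in WT and 5.15, 0.571 and 2.08 CPM in KO, where only KO replicates 1 and 3 exceeded WT. Its log2 fold change was 2.56 (SE 0.87, edgeR adjusted p = 0.219) and 1.57 without KO replicate 1. DESeq2 called it (adjusted p = 0.0370).

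*Cxcl14* (chr13:56288643-56296551), a conserved chemokine of epithelia and fibroblasts, read 1.32, 2.93, 2.31 and 2.20 CPM in WT and 62.7, 4.15 and 6.20 CPM in KO. All KO libraries were above all WT libraries, but KO replicate 1 was 10.1-fold above KO replicate 3. EdgeR fitted a log2 fold change of 3.48 (SE 0.93, adjusted p = 0.179), which became 1.23 without KO replicate 1. By exact permutation p was 0.0286, which is the lowest value possible with 4 against 3 libraries. DESeq2 assigned the gene no adjusted p. Markers of fibroblasts (8 genes led by *Col1a2*, *Col1a1* and *Dcn*) summed to 20281, 13994 and 12875 CPM in KO and 9995 to 18297 CPM in WT.

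The 2 membrane-anchored chemokines had the smallest SE of the 10 genes, and both were above WT in every KO library. Their log2 fold changes were larger than those of *Cxcl9* and *Cxcl12* and smaller than those of the others. *Cxcl16* (chr11:70453983-70459984), the *Cxcr6* ligand that also acts as a scavenger receptor for oxidised lipoprotein, read 11.6, 10.4, 10.6 and 11.8 CPM in WT and 49.0, 18.6 and 34.7 CPM in KO. The lowest KO library was thus well clear of the highest WT library. Its log2 fold change was 1.62 (SE 0.29) with an edgeR adjusted p of 0.165, against 8.77e-05 with DESeq2. It was 1.26, 1.97 and 1.62 without KO replicates 1, 2 and 3, and without KO replicate 2 edgeR's adjusted p was 0.0174. The exons of *Cxcl16* overlap *Zmynd15* on the opposite strand over 18.3% of their length.

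*Cx3cl1* (chr8:94772009-94782427), fractalkine, which endothelial and smooth muscle cells present to monocytes bearing *Cx3cr1*, read 11.5, 10.1, 10.3 and 13.2 CPM in WT and 33.8, 17.2 and 22.7 CPM in KO. The groups did not overlap. Means of 24.5 ± 8.45 (SD, n = 3) and 11.3 ± 1.40 CPM (SD, n = 4) came with a log2 fold change of 1.12 and SE of 0.24 (edgeR adjusted p = 0.166), and DESeq2 gave an adjusted p of 0.00152. For *Cxcl16* and *Cx3cl1* alike the exact permutation p was 0.0286. Endothelial markers (8 genes led by *Pecam1*, *Vwf* and *Cdh5*) summed to 941, 1599 and 1585 CPM in KO and 1566 to 1683 CPM in WT, so they were lowest in KO replicate 1, where *Cx3cl1* was highest.

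**Figure D2:**
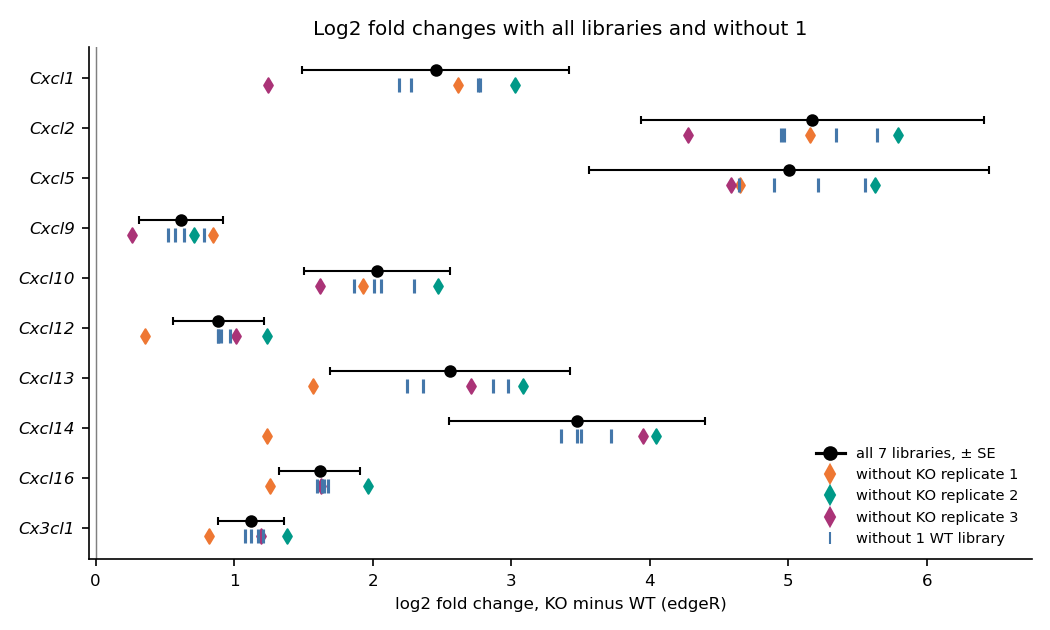
Log2 fold change of KO minus WT (x axis, edgeR) for each chemokine gene. Black points with bars give the value ± SE from all 7 libraries, diamonds the value without 1 KO library and blue ticks without 1 WT library; all values lie above 0, and *Cxcl12*, *Cxcl13* and *Cxcl14* are lowest without KO replicate 1 (orange), *Cxcl1* and *Cxcl9* without KO replicate 3 (purple).

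The 10 genes split evenly by which KO library was highest. *Cxcl1*, *Cxcl2*, *Cxcl5*, *Cxcl9* and *Cxcl10*, the ELR and *Cxcr3* ligands, were highest in KO replicate 3. *Cxcl12*, *Cxcl13*, *Cxcl14*, *Cxcl16* and *Cx3cl1* were highest in KO replicate 1. KO replicate 3 was 2.86-fold above KO replicate 1 for *Cxcl1* and 1.91-fold for *Cxcl2*, but 1.07-fold for *Cxcl5*. In the other direction, KO replicate 1 was 1.90-fold above KO replicate 3 for *Cxcl12* and 2.47-fold for *Cxcl13*. Single libraries carry no error for these ratios. The macrophage and neutrophil sums were highest in KO replicate 1. As medians over the 10 genes, log2 deviations from the WT mean were 2.31 for KO replicate 1, 0.63 for KO replicate 2 and 2.08 for KO replicate 3, with WT libraries from -0.68 to 0.37.

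**Figure D3:**
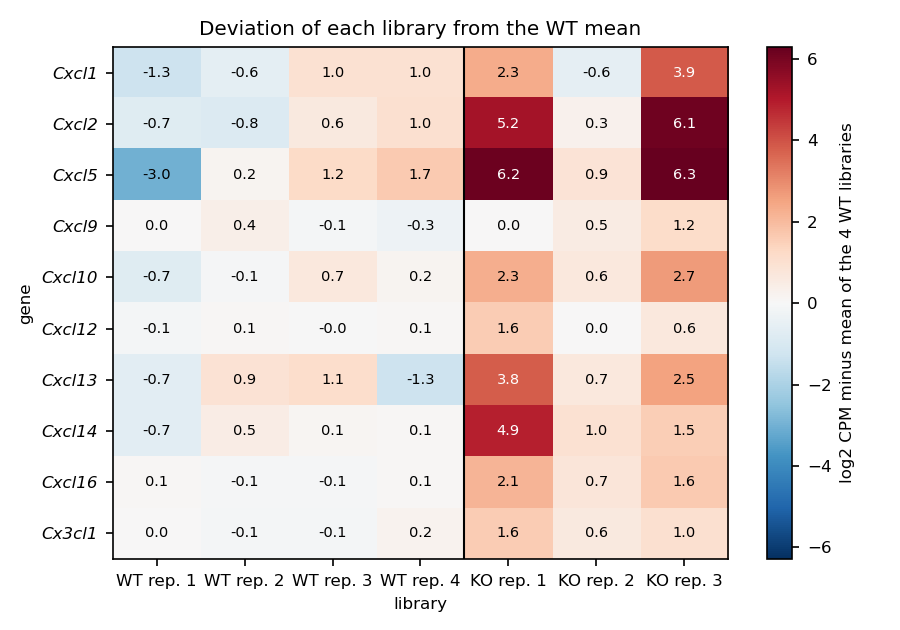
Difference of log2 CPM (prior count 2) from the mean of the 4 WT libraries, for each chemokine gene (rows) in each library (columns); red is above and blue below. The upper 5 rows are highest in KO replicate 3 and the lower 5 in KO replicate 1, and KO replicate 2 is the lowest KO column in every row but *Cxcl9*.

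WT libraries were far from uniform for the scarce genes. WT replicate 1 was the lowest library for 5 of the 10 genes and WT replicate 2 for 3. The coefficient of variation in WT was 6.29% for *Cxcl16* and 7.03% for *Cxcl12*, against 67.6% for *Cxcl1* and 85.8% for *Cxcl5*.

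Levels between genes can be compared only per length. As CPM per kilobase of exon in WT, *Cxcl12* led at 22.8 ± 1.60, followed by *Cxcl16* at 3.67 ± 0.231, *Cx3cl1* at 2.87 ± 0.357 and *Cxcl9* at 2.00 ± 0.411 (SD, n = 4). The ranges of these 4 over the WT libraries did not overlap, though those of *Cx3cl1* (from 2.58) and *Cxcl9* (up to 2.56) nearly met. Further down, *Cxcl1*, *Cxcl14*, *Cxcl10*, *Cxcl13*, *Cxcl5* and *Cxcl2* followed at 1.32, 1.20, 0.718, 0.383, 0.190 and 0.0715 on this scale, and each neighbouring pair overlapped. In KO the order by the mean of CPM per kilobase was *Cxcl12* (42.1), *Cxcl14* (13.3), *Cxcl16* (11.3), *Cxcl1* (7.22), *Cx3cl1* (6.25), *Cxcl5* (6.18), *Cxcl9* (3.07), *Cxcl10* (2.94), *Cxcl2* (2.62) and *Cxcl13* (2.26). These KO ranges overlapped for every neighbouring pair.

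**Figure D4:**
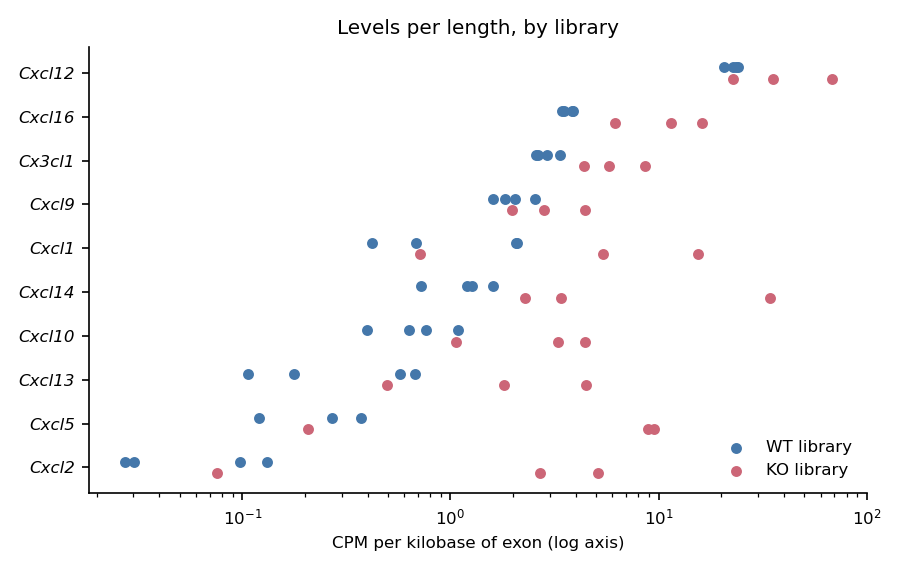
CPM per kilobase of exon (log axis) of each chemokine gene in the 4 WT (blue) and 3 KO (red) libraries, ordered by the WT mean; the WT library with *Cxcl5* at 0 is not drawn. *Cxcl12* is the highest gene in both groups, and *Cxcl2* spans from 0.0759 to 5.11 over the KO libraries.

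Signalling receptors were measured next, as the partners of these ligands. Of 7 such genes 6 passed the filter, and edgeR called 0 of them. DESeq2 called 3 higher (*Cxcr2*, *Cxcr6* and *Cx3cr1*), where it called 6.15% of the genes it gave an adjusted p higher. *Cxcr5* was given none. *Cxcr2*, the neutrophil receptor for the ELR ligands, read 50.4, 0.286 and 11.1 CPM in KO and 0.0717 to 0.338 CPM in WT, so KO replicate 2 lay within WT as it did for *Cxcl2* and *Cxcl5*. Its log2 fold change was 6.60 (SE 1.46, edgeR adjusted p = 0.166). *Cxcr1* did not exceed 0.231 CPM in any library and was not tested.

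*Cx3cr1*, the fractalkine receptor of monocytes and macrophages, read 49.3, 9.21 and 20.7 CPM in KO and 1.94, 4.05, 2.98 and 2.39 CPM in WT. No overlap was seen, and the log2 fold change was 3.21 (SE 0.55, edgeR adjusted p = 0.165; DESeq2 adjusted p = 9.88e-07). *Cxcr6*, carried by T and natural killer cells, was sparse yet even, at 1.53, 1.84 and 1.97 CPM in KO and 0.251 to 0.787 CPM in WT (log2 fold change 1.73, SE 0.43, edgeR adjusted p = 0.174). A list of 10 T and natural killer cell markers led by *Cd8a*, *Cd4* and *Cd8b1* summed to 13.6, 38.0 and 27.7 CPM in KO. In WT the sum ran from 10.6 to 119.5 CPM, with the upper end from WT replicate 2 alone. KO replicates 2 and 3 were above the other WT libraries, and KO replicate 1 lay among them. For 2 of the 11 receptors, *Cxcr6* and *Cx3cr1*, every KO library was above every WT library, where 8.17% of all genes tested showed this.

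The other receptors overlapped between groups. *Cxcr4*, the *Cxcl12* receptor, read 39.6, 6.80 and 8.78 CPM in KO and 3.07 to 11.3 CPM in WT. A log2 fold change of 1.51 was fitted, which became 0.25 when KO replicate 1 was left out. *Cxcr3* read 2.10, 0.757 and 0.544 CPM in KO and 0.229 to 0.662 CPM in WT, and *Cxcr5* 0.535, 0.143 and 0.544 CPM against 0.100 to 0.204 CPM. *Cxcr5* reached the filter's level in 1 WT and 3 KO libraries and entered the test through its KO values. Scavenger receptors take up chemokines without signalling through G proteins, and none of the 4 was called by either tool (median log2 fold change -0.17). *Ackr3*, which removes *Cxcl12*, was the most abundant of them, at 57.7, 89.0 and 92.4 CPM in KO and 82.5 to 113 CPM in WT (log2 fold change -0.28, edgeR adjusted p = 0.499). *Ackr1*, *Ackr2* and *Ackr4* had log2 fold changes of 0.41, -0.07 and -0.50, and the sign for *Ackr2* changed without WT replicate 1, WT replicate 4 or KO replicate 1.

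**Figure D5:**
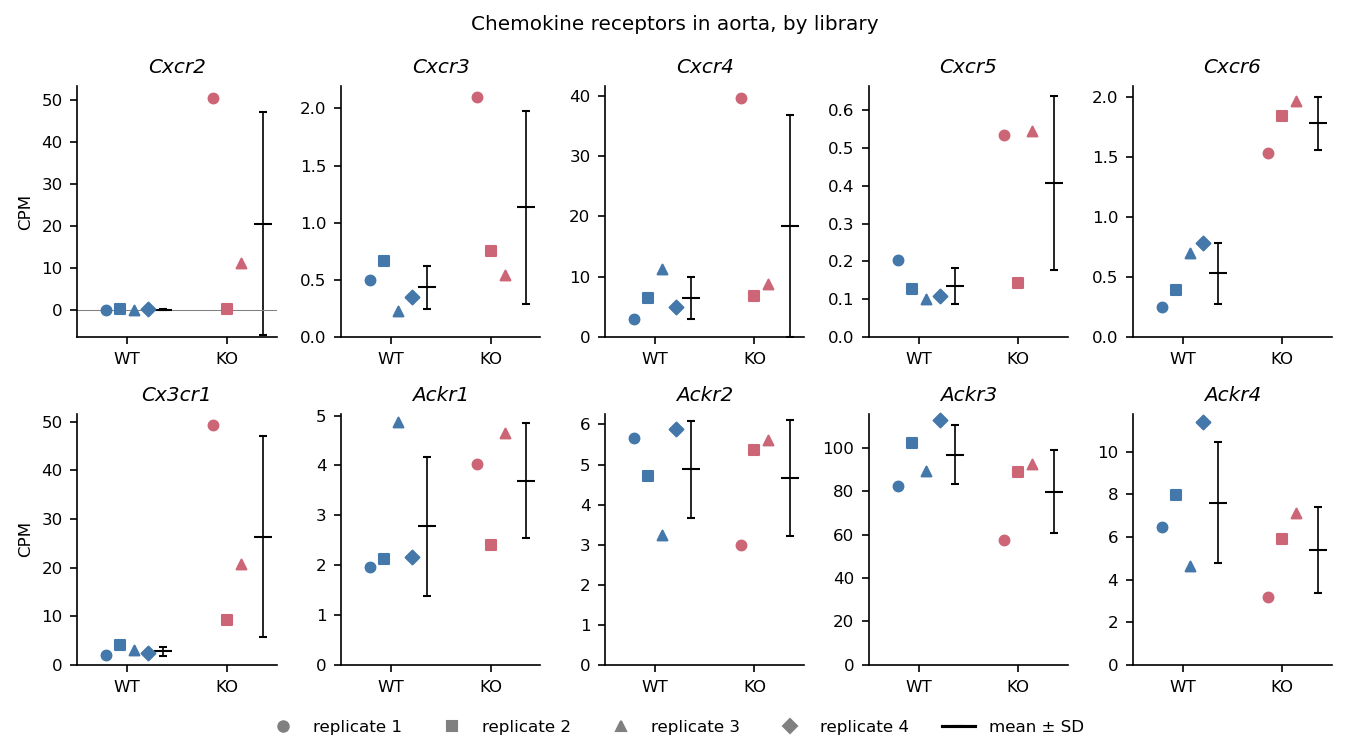
CPM of the 6 tested signalling receptors and 4 scavenger receptors in 4 WT (blue) and 3 KO (red) libraries, linear axes; marker shapes give the replicate number and bars the mean ± SD. *Cxcr6* and *Cx3cr1* separate the groups, *Cxcr2* is high in KO replicates 1 and 3 alone, and the scavenger receptors overlap.

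The 5 genes for release or trimming of these ligands had log2 fold changes from -0.33 to 0.51. *Adam17*, a sheddase of both membrane-anchored chemokines, read 117, 81.4 and 82.6 CPM in KO and 61.9 to 71.5 CPM in WT (log2 fold change 0.51, SE 0.15, edgeR adjusted p = 0.187). *Adam10*, the other sheddase, had a log2 fold change of 0.48 and *Dpp4*, which clips the amino terminus of several CXC chemokines, one of 0.46. *Rhbdf1*, an inactive rhomboid that helps *Adam17* mature, had one of -0.33. Of the 5 genes on this list edgeR and DESeq2 called 0. At an unadjusted edgeR p under 0.05, 3 were higher and 1 lower, where 9.92% and 7.27% of all genes were. For *Adam17* alone every KO library was above every WT library, where 8.17% of all genes tested showed this.

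Of 8 cytokines known to induce inflammatory chemokines, 4 were tested. *Il1b* read 17.1, 1.21 and 28.1 CPM in KO and 0.125 to 0.434 CPM in WT, and *Il6* 6.37, 0.214 and 18.2 CPM in KO and 0.0679 CPM or less in WT. As for *Cxcl1*, *Cxcl2* and *Cxcl5*, KO replicate 3 was the highest library for both. *Tnf* read 3.54, 0.157 and 1.24 CPM in KO and up to 0.421 CPM in WT, and *Il1a* 0.79, 0 and 1.17 CPM in KO and up to 0.188 CPM in WT. EdgeR called 0 of the 4. DESeq2 called *Il1b* and *Il6* higher, where it called 6.15% of the genes it gave an adjusted p higher. *Il1a* was given none. *Il6* and *Tnf* entered the test only through their KO values, as *Cxcl2* did, while *Il1a*, at 0 in KO replicate 2, needed WT replicate 1 as well. *Ifng*, the inducer of *Cxcl9*, was at 0.0777 CPM in KO replicate 3 and at 0 in the other 6 libraries. Of the remaining untested cytokines, *Il17a* was at 0 in every library, *Ifnb1* was seen in KO replicate 3 alone (0.0518 CPM), and *Lta* read 0.0608, 0.0428 and 0.207 CPM in KO and up to 0.225 CPM in WT, with overlap.

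Genes of the interferon and NF-κB arms were read from lists of 12 each. In the interferon list 11 genes had a positive log2 fold change and the median was 0.59. EdgeR called 0 and DESeq2 6 higher, where DESeq2 called 6.15% of all genes it gave an adjusted p higher. *Irf7* read 39.1, 19.8 and 47.1 CPM in KO and 7.22 to 13.7 CPM in WT, and *Irf8*, a factor of myeloid cells, 52.9, 9.62 and 19.1 CPM against 4.84 to 6.52 CPM. *Stat2* and *Irf9*, which form the factor that binds interferon response elements, had log2 fold changes of 0.84 and 0.83. In the NF-κB list 11 genes were positive with a median of 0.50, and edgeR called 0. DESeq2 called *Rel* alone of the 12, beside the same 6.15%. *Rel* read 34.2, 11.6 and 15.6 CPM in KO and 8.34 to 10.9 CPM in WT. *Icam1*, *Birc3* and *Nfkb2* had log2 fold changes of 0.44, 0.59 and 0.67.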

How the data were processed

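RNA of mouse aorta was taken up in Trizol and 2 µg per library were made into SMARTER mRNA-Seq libraries, per the labels' protocols. Values are estimated counts, deposited as whole unscaled numbers in 1 table of all genes, of which all 7 library columns were used. Submitters' processing notes name GRCm38 and mm10. Aligner, counter, annotation and strandedness were not given in the sources used here. Low values pile up at multiples of 4, so a count need not be 1 read.

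Of 47729 identifiers 47224 matched a symbol, and 120 that share one were not listed. Genes passing filterByExpr (10 counts in 3 libraries, here 0.137 CPM) were tested with edgeR 4.0.16 in R 4.3.3 (TMM, glmQLFit, glmQLFTest, no covariates, Benjamini-Hochberg over 19188 genes). CPM use the TMM scale. Standard errors match the F statistic. Single genes were also tested by exact permutation of the 35 possible label sets. Positions and exon lengths come from GENCODE M21, promoters from RefSeq (GRCm38.p6; 8 of 10 genes matched). The procedure was tested on simulated data. The members and lists were chosen with earlier results of these data known. Named genes were all chemokines and receptors, the 4 smallest p-values of each pathway list and the 3 most abundant markers of each cell type set beside a result (3 of the 10 marker lists are not reported here); naming the untested cytokines was decided once their values were known.

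Alternatives were DESeq2's size factors, upper-quartile scaling, no filter, 50 counts in 3 libraries, DESeq2 1.42.0, limma-voom with quality weights (limma 3.58.1), a block for the replicate number, and each library left out in turn. Counts divided by 4 and edgeR's newer quasi-likelihood fit were chosen after seeing the data.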

Additional observations from a re-analysis of the deposited data

Results flagged for a closer look

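The WT group of 4 libraries was examined for a library far from the others, for the 10 chemokines and 11 receptors. Chance marks about 1 in 20 groups of normally distributed values, which scarce counts are not, and 2 of 21 were marked. *Ackr1*, the scavenger receptor of venous endothelium and red cells, read 4.86 CPM in WT replicate 3, against 1.96 to 2.16 CPM in the other 3 WT libraries. *Cxcr1* read 0.0543 CPM in WT replicate 4, from 4 deposited counts, and 0 in the other WT libraries. With all others at 0, any value above 0 is marked, so this mark says nothing more.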

How the results depend on the processing

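The count of 3 called genes was 0 with no filter, 7 with at least 50 counts in 3 libraries, 1606 with DESeq2, 7 with limma-voom, 7 with counts divided by 4, 5 with the newer quasi-likelihood fit, and 0 to 1029 when 1 library was left out, 1029 being the value without KO replicate 2 and 0 that without any other. Chemokines called were 7 with DESeq2 and 0 to 7 without 1 library. Receptors called were 3 with DESeq2 and 0 to 2 without 1 library. The highest counts without 1 library were those without KO replicate 2, and all other alternatives gave 0 for both. The median log2 fold change of the chemokines ran from 1.42 without KO replicate 1 to 2.75 without KO replicate 2. No chemokine changed sign under any alternative that tested it. *Cxcl2* was not tested with at least 50 counts in 3 libraries or with counts divided by 4. *Ackr2* changed sign with limma-voom (0.038), with the block (0.024) and without 1 library (-0.22 to 0.17, above 0 without WT replicate 1, WT replicate 4 or KO replicate 1). The cause of these shifts was not tested.

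With the replicate number as a block, 0 genes, 0 chemokines and 0 receptors were called. This fit has less power, since WT replicate 4 has no KO library of its number and adds nothing to the comparison. Its lack of calls therefore does not show a lack of difference. Deviations of same-numbered libraries from their group means correlated over genes at 0.054, 0.069 and 0.34 for numbers 1, 2 and 3, so the numbers were not taken as pairs. KO replicates 1 and 2 correlated best with WT replicates 4 and 1, and KO replicate 3 with its own number.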

Other observations

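The CC chemokines, which draw mainly monocytes and lymphocytes, were read as the family most like the CXC members. Of 18 genes 16 were tested, 15 had a positive log2 fold change and the median was 2.87, beside 2.24 for the 10 genes of the report; the difference between the families was not tested. None was called by edgeR, and 10 had an unadjusted edgeR p under 0.05, all higher, where 9.92% of all genes did. DESeq2 called 9 higher, where it called 6.15% of the genes it gave an adjusted p higher. *Ccl9* read 263, 32.2 and 68.3 CPM in KO replicates 1, 2 and 3 and 11.1 to 23.7 CPM in WT. *Ccl12*, a mouse monocyte attractant, read 8.78, 1.63 and 10.2 CPM in KO and 0.169 to 0.978 CPM in WT. *Ccl3* read 5.98, 0.771 and 1.90 CPM in KO and 0.0704 CPM or less in WT, and *Ccl4* 2.93, 0.457 and 4.22 CPM in KO and 0.0574 CPM or less in WT. These 4 had the smallest p-values of the family, and their groups did not overlap. Over the family, 6 of the 16 tested genes had every KO library above every WT library, where 8.17% of all genes did, and the other 10 overlapped. *Ccl3* and *Ccl4* entered the test only through their KO values.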
